A study of Mus musculus with 23 samples.

Results

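Levels of 9 genes tied to amyloid and tau were described in mouse hippocampus: App, Mapt, Apoe, Bace1, Psen2, Clu, Adam10, Ide and Mme. They were selected from the table by symbol, and are 9 of the 19733 genes in the table. Hippocampal RNA was sequenced from 23 male C57BL/6J mice labelled wild type, which were 6 weeks old when acquired. The 9 Ctrl mice received an AIN93M control liquid diet and a daily gavage of the vehicle CMC-Na (sodium carboxymethyl cellulose). The 7 EtOH mice received an ethanol liquid diet and the same vehicle. The 7 EtOH-UA mice received the ethanol diet and a daily gavage of urolithin A (UA, a compound that gut bacteria make from dietary ellagitannins) at 200 mg/kg/day. Diet and gavage lasted 16 weeks and were followed by 1 week of behavioral tests. No group received UA with the control diet, so an effect of UA without alcohol was not measured. Mice without an Alzheimer transgene express the mouse forms of these genes, and the protein products were not measured in these libraries.

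Amyloid-beta is a peptide cut from the amyloid precursor protein, which App encodes. The alpha-secretase ADAM10 cuts the precursor inside the peptide, whereas the beta-secretase BACE1 cuts at its start and the gamma-secretase, with PSEN2 as a catalytic subunit, cuts at its end. The peptide is degraded by proteases that include insulin degrading enzyme (Ide) and neprilysin (Mme), and it is bound by the lipid-carrying proteins apolipoprotein E (Apoe) and clusterin (Clu), which in brain come largely from astrocytes. Tau, encoded by Mapt, binds microtubules in axons and is the protein of neurofibrillary tangles.

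Levels are in FPKM, mapped fragments scaled to transcript length and to library size, a level per length that can be set side by side between genes. The summed FPKM of a library over all genes was 330500 to 361400 in Ctrl, 327900 to 366900 in EtOH mice and 333800 to 404600 in EtOH-UA mice, with medians of 342300, 335000 and 336900. Read totals per library were not used here. The even steps of low values in 41 of 501 genes with 1 annotated transcript placed 1 FPKM at about 17.0 fragments for each kilobase (median). At that depth Mme would rest on about 81.2 fragments per library, a counting error of 11.1%, and Psen2 on about 217 fragments, an error of 6.80%. For the other 7 members the counting error came to at most 3.35%. The libraries carried markers of neurons, with Snap25 between 981 and 1254 FPKM in all mice. Ttr, the most abundant choroid plexus marker, ranged from 3.88 to 2914 FPKM in Ctrl, from 58.4 to 5628 in EtOH mice and from 11.3 to 7705 in EtOH-UA mice. Its medians were 56.1, 1249 and 1811 FPKM in that order, so the Ctrl libraries held less of this marker at the median.

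The 9 members kept almost the same order of abundance in every mouse. Apoe was highest, followed by App, Clu, Mapt, Adam10, Bace1, Ide, Psen2 and Mme. Each neighbour in that order was higher than the next in 23 of 23 mice, except that App exceeded Clu in 19 of 23. The ranges over all mice overlapped for App and Clu, whose order was not kept in each mouse. They also overlapped for Adam10 and Bace1, although within a mouse Adam10 was 1.10 to 1.44 times Bace1. The other neighbours had ranges apart. Among all genes Apoe ranked 10, App 40 and Clu 50 by mean FPKM, and at the other end Mme ranked 12513.

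**Figure D1:**
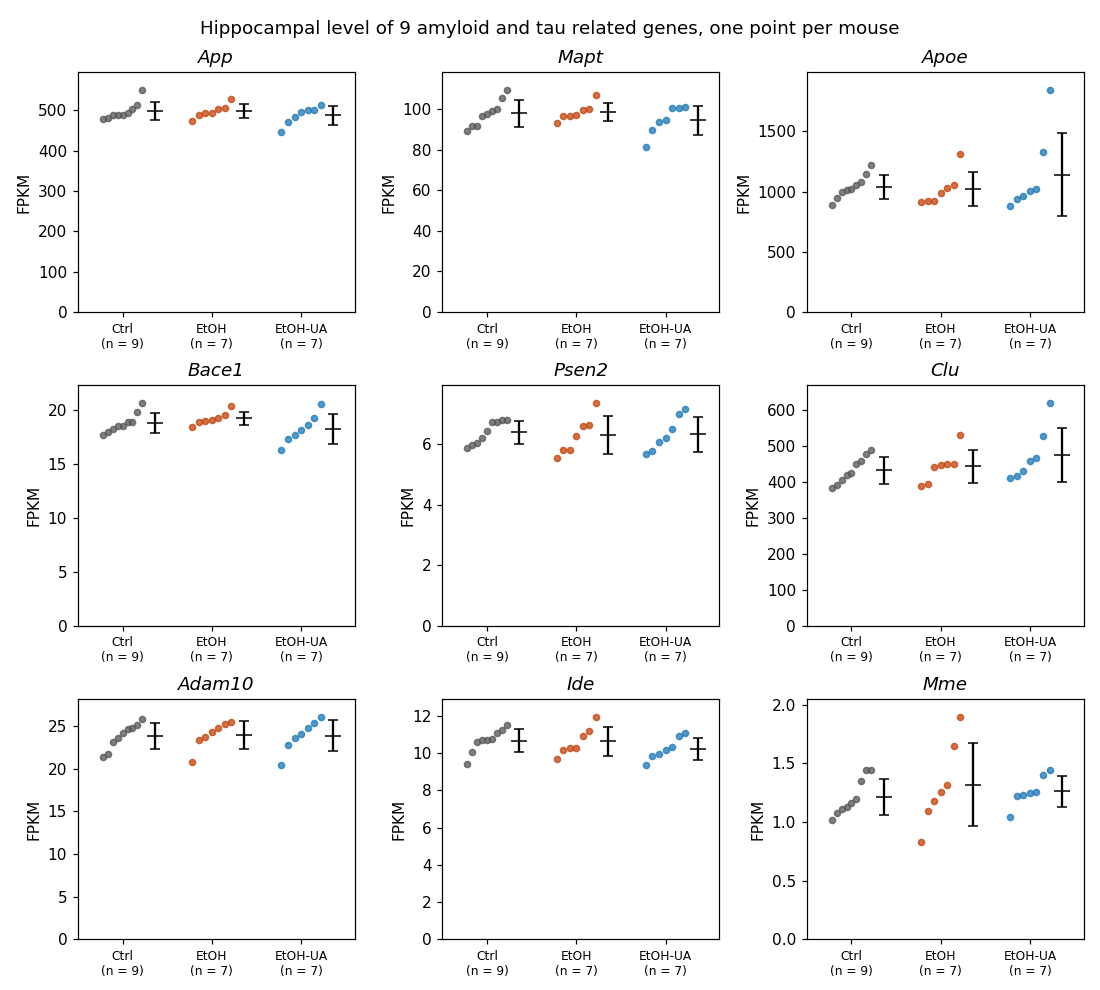
Level of each member gene in FPKM (vertical axes, from 0), 1 point per mouse in order of level, for Ctrl (n = 9), EtOH (n = 7) and EtOH-UA mice (n = 7); bars give the mean and SD. The 3 groups overlap for every member, and the widest spread is that of Apoe in EtOH-UA mice, up to 1847 FPKM.

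The promoters of App and Apoe, the most abundant members, are shown because each belongs to a pair of members whose levels moved together across mice, as given further on. Both windows hold 191 bases that end 59 bases before a RefSeq start (GRCm38.p6). For App this is the only start in the promoter set used. For Apoe it is the one of 3 starts nearest to an annotated principal transcript. Bases run 5′ to 3′ on the gene's strand, with CpG dinucleotides in capitals. The App window lies at chr16:85173767-85173957 and the Apoe window at chr7:19699248-19699438, both on the minus strand. Both windows lie inside the RefSeq gene spans, which reach to position 85175255 for App and 19701310 for Apoe.
App: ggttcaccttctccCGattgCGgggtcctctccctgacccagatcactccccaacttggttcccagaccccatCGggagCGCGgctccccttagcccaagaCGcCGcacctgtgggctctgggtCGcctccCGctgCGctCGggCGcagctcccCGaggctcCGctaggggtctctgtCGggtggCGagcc
Apoe: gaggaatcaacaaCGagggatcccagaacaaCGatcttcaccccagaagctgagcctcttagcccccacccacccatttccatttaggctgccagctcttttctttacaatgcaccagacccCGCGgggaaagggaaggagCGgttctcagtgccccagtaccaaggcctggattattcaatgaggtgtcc

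The App window had a GC content of 69.6% and an observed over expected CpG ratio of 0.709, and the Apoe window 54.5% and 0.362. Over 32851 promoter windows of the same length the median GC content was 51.3% and the median CpG ratio 0.353. Neither printed window held the TATA box letters TATAAA on either strand (8.78% of all windows did), the GC box letters GGGCGG (23.1%), the E-box letters CACGTG (4.06%) or the CCAAT box (26.9%). The window of 1 of the 3 Apoe starts, not printed, held TATAAA. All windows stop 59 bases before their start. The search therefore cannot show whether such letters lie nearer to the start of App or Apoe.

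For the precursor, App was 498 ± 22.7 FPKM (SD, n = 9) in Ctrl, 498 ± 16.8 (n = 7) in EtOH mice and 487 ± 22.4 (n = 7) in EtOH-UA mice. The lowest, median and highest mouse had 477, 489 and 551 FPKM in Ctrl, 475, 494 and 528 in EtOH, and 447, 496 and 513 in EtOH-UA. The groups overlapped, and the within-group SD of App, 0.061 on the log2 scale, was lower than that of all but 1.37% of 12904 genes at 1 FPKM or more on average. EtOH and Ctrl mice differed by 0.00069 in log2 FPKM (95% confidence interval -0.095 to 0.096), which places the ratio of EtOH to Ctrl between 0.937 and 1.07.

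For the secretases, Bace1 was 18.8 ± 0.935 FPKM (SD, n = 9) in Ctrl, 19.2 ± 0.616 (n = 7) in EtOH mice and 18.2 ± 1.39 (n = 7) in EtOH-UA mice. Its lowest, median and highest values were 17.6, 18.5 and 20.6 FPKM in Ctrl, 18.4, 19.1 and 20.3 in EtOH, and 16.3, 18.1 and 20.5 in EtOH-UA. The groups overlapped, and 2 of 7 EtOH-UA mice lay above the EtOH median. Bace1 gave the smallest p of any member in any comparison, for EtOH-UA against EtOH: a log2 difference of -0.076 (SE 0.047, 95% confidence interval -0.17 to 0.021), with a limma p of 0.118, adjusted to 0.900 over all genes by the Benjamini-Hochberg method, and an exact permutation p of 0.115. Adam10 ranged from 21.5 to 25.8 FPKM in Ctrl, from 20.8 to 25.5 in EtOH mice and from 20.5 to 26.2 in EtOH-UA mice, with medians of 24.2, 24.4 and 24.1. The fitted log2 differences of this alpha-secretase were 0.0086, -0.0061 and 0.0025 for EtOH against Ctrl, EtOH-UA against EtOH and EtOH-UA against Ctrl mice. Psen2 ranged from 5.89 to 6.82 FPKM in Ctrl, from 5.56 to 7.37 in EtOH mice and from 5.68 to 7.17 in EtOH-UA mice, with medians of 6.46, 6.29 and 6.20.

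For the degrading enzymes, Ide was 10.7 ± 0.634 FPKM (SD, n = 9) in Ctrl, 10.7 ± 0.774 (n = 7) in EtOH mice and 10.2 ± 0.601 (n = 7) in EtOH-UA mice. Its medians were 10.7, 10.3 and 10.2 FPKM, over overlapping ranges of 9.40 to 11.5, 9.69 to 11.97 and 9.35 to 11.1. Mme, the least abundant member, ranged from 1.02 to 1.44 FPKM in Ctrl, from 0.83 to 1.90 in EtOH mice and from 1.04 to 1.44 in EtOH-UA mice. The EtOH range held both others, and the log2 difference of EtOH from Ctrl was 0.080 (95% confidence interval -0.17 to 0.33).

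For the lipid carriers, Apoe was 1042 ± 100 FPKM (SD, n = 9) in Ctrl, 1022 ± 140 (n = 7) in EtOH mice and 1141 ± 344 (n = 7) in EtOH-UA mice. Its lowest, median and highest values were 888, 1022 and 1221 FPKM in Ctrl, 917, 986 and 1313 in EtOH, and 879, 1002 and 1847 in EtOH-UA. The EtOH-UA mean lay above the others while its median lay between them. Clu ranged from 381 to 488 FPKM in Ctrl, from 388 to 530 in EtOH mice and from 410 to 619 in EtOH-UA mice, with medians of 424, 446 and 456.

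In bulk tissue, fewer cells of a type and less RNA per cell cannot be told apart. The EtOH-UA values of Apoe and Clu rested on the 2 libraries with the highest summed FPKM of the series, 404600 and 379500. These had 1847 and 1331 FPKM of Apoe, 619 and 528 of Clu and 7.17 and 7.02 of Psen2, the 2 highest values of their group for each gene. The first of them also had the lowest App, Mapt, Bace1, Adam10 and Ide of the 7. In the other 5 EtOH-UA mice Apoe was 961 ± 55.5 FPKM and Clu 436 ± 24.5 (SD, n = 5). Without both libraries the log2 difference of Apoe turned from 0.12 to -0.079 against EtOH and from 0.090 to -0.11 against Ctrl, and that of Clu from 0.095 to -0.017 against EtOH. Leaving out the first library alone brought the Apoe difference to -0.00087 against EtOH and -0.033 against Ctrl. The part of the summed FPKM in these values was not tested.

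Mapt was 97.8 ± 6.66 FPKM (SD, n = 9) in Ctrl, 98.5 ± 4.42 (n = 7) in EtOH mice and 94.4 ± 7.19 (n = 7) in EtOH-UA mice. Its lowest, median and highest values were 89.1, 97.7 and 110 FPKM in Ctrl, 93.1, 96.8 and 107 in EtOH, and 81.2, 94.6 and 101 in EtOH-UA. The ranges overlapped, and the log2 difference of EtOH-UA from EtOH was -0.064 (95% confidence interval -0.17 to 0.047).

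None of the 9 members passed the threshold, an adjusted p under 0.05 in limma over 15986 genes, for EtOH against Ctrl, EtOH-UA against EtOH or EtOH-UA against Ctrl. Of all genes tested 0% passed it in each comparison, so 0 of 9 members is the same share as the background. At an unadjusted limma p under 0.05, 0 of 9 members passed in each comparison beside 3.05%, 3.27% and 3.08% of all genes, and by the exact permutation test 0 of 9 beside 3.54%, 3.1% and 2.98%. The smallest adjusted limma p of a member was 0.999, 0.900 and 0.999 in that order.

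Members were higher in EtOH than in Ctrl mice for 6 of 9, in EtOH-UA than in EtOH for 3 of 9, and in EtOH-UA than in Ctrl for 4 of 9. The median log2 difference of the members was 0.0086, -0.025 and -0.018, and that of all genes tested -0.0030, 0.0033 and 0.0024. The largest log2 difference of a member in either direction was 0.080, 0.12 and 0.13, for Mme, Apoe and Clu. The Clu difference from Ctrl was 0.061 without the EtOH-UA library of highest summed FPKM and 0.014 without the 2 highest. The comparisons share groups of mice and are not independent of each other. The column names carry mouse numbers, so the tests measure the spread between mice.

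**Figure D2:**
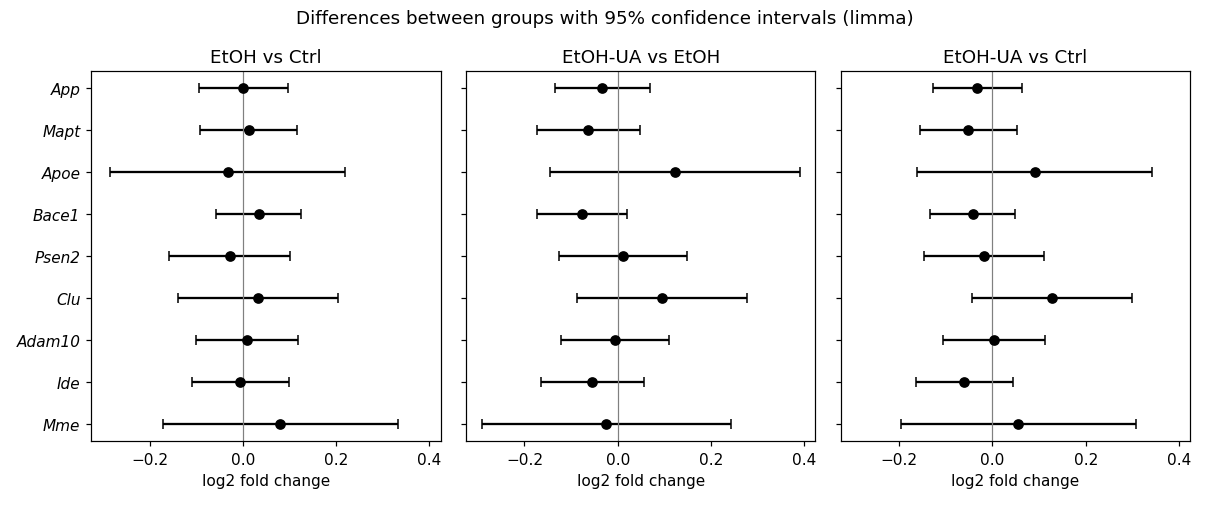
Difference in mean log2(FPKM + 0.1) (horizontal axes) of each member for EtOH against Ctrl, EtOH-UA against EtOH and EtOH-UA against Ctrl mice; points are limma estimates and bars 95% confidence intervals. All 27 intervals include 0, and those of Apoe and Mme are the widest, reaching 0.39 for Apoe in EtOH-UA against EtOH.

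A ratio of FPKM between genes of the same library does not depend on a scale common to all genes of that library. It can still move with the summed FPKM where its genes follow the sum unequally. The ratio of beta- to alpha-secretase, Bace1/Adam10, was 0.789 ± 0.061 (SD, n = 9) in Ctrl, 0.802 ± 0.057 (n = 7) in EtOH mice and 0.764 ± 0.049 (n = 7) in EtOH-UA mice. Bace1/App was 0.0376 ± 0.00059, 0.0385 ± 0.0014 and 0.0374 ± 0.0019, in the same order. The SD of this enzyme to substrate ratio was smallest in Ctrl mice. App/Aplp2, the precursor over its homologue, was 3.05, 3.04 and 2.98. Clu/Apoe was 0.416, 0.435 and 0.428, Mapt/Map2, axonal over dendritic microtubule protein, 0.509, 0.504 and 0.506, and Mme/Ide 0.114, 0.123 and 0.123. None of the 18 two-sided exact permutation tests of these ratios gave a p under 0.05, and the smallest was 0.110, for Bace1/App in EtOH against Ctrl. Bace1/App passed without the EtOH mouse of highest App (difference 0.046 in log2, exact permutation p = 0.0168) and, for EtOH-UA against EtOH, without the EtOH-UA mouse of highest Bace1 (-0.066, p = 0.0390). Clu/Apoe passed for EtOH-UA against Ctrl without the 2 libraries of highest summed FPKM (0.13, exact permutation p = 0.0315). These p-values are not adjusted for the 18 tests.

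Across mice the members varied together in pairs, after group means were removed. Of the 36 pairs Apoe and Clu had the highest r, with Pearson's r of 0.884 and Spearman's rho of 0.767 over 23 mice (permutation p = 1e-05, the smallest that 100000 permutations can give, and 6e-05), and r was 0.678 in Ctrl, 0.871 in EtOH mice and 0.978 in EtOH-UA mice. Without the 2 mice of most extreme Apoe it was 0.779. Many genes were as like: among 12903 other genes Clu ranked 466 in likeness to Apoe, and Apoe ranked 5 in likeness to Clu. App and Bace1, precursor and beta-secretase, had r of 0.772 and rho of 0.782 (permutation p = 3e-05 and 5e-05), with r of 0.948, 0.375 and 0.786 within Ctrl, EtOH and EtOH-UA mice and 0.624 without the 2 mice of most extreme App. Of 36 pairs of members 16 had a positive and 20 a negative r. Adjusted by the Benjamini-Hochberg method over the 126 relations computed, 10 pairs passed 0.05 for r and 3 of these also for rho: Apoe with Clu (0.00042 and 0.0015), App with Bace1 (0.00063 and 0.0015) and Apoe with Ide (r = -0.615, 0.014 and 0.046). The pair Clu and Adam10 had the lowest r, -0.724. All values of a mouse share 1 library and its scale. No share of pairs of other genes that pass is given here, so the counts of pairs cannot be read as particular to these members.

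**Figure D3:**
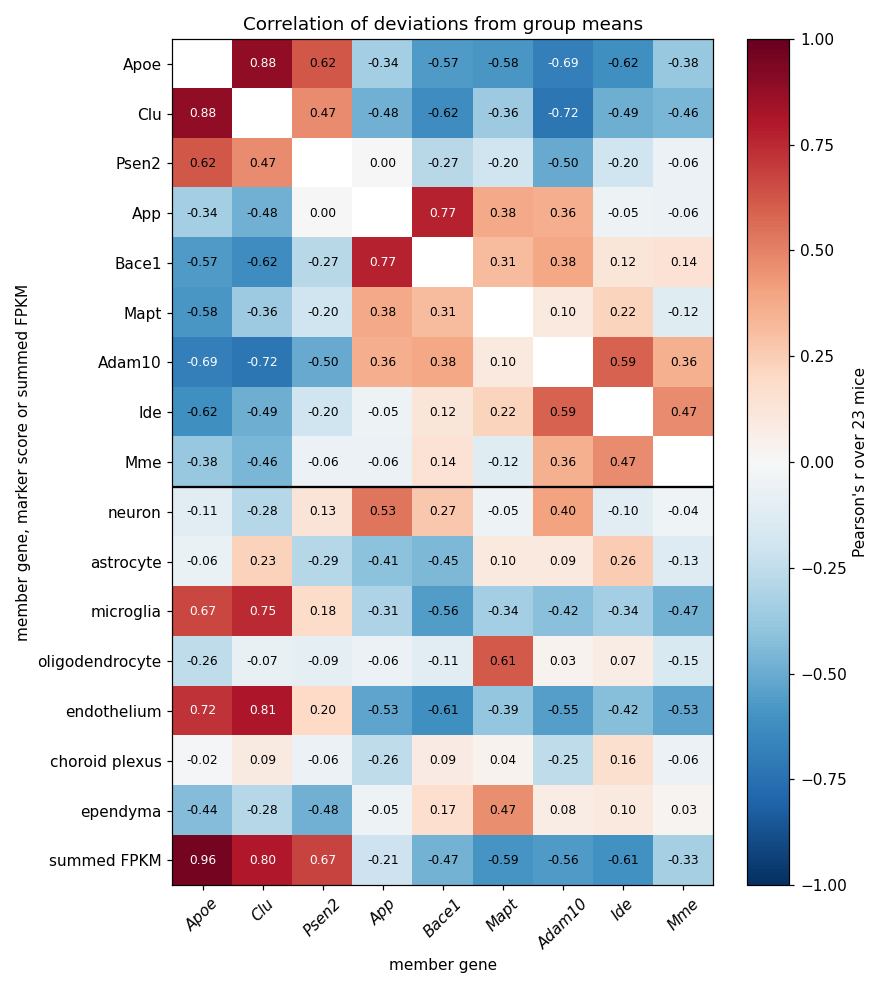
Pearson's r over 23 mice between members (upper block) and of members with 7 marker scores and the summed FPKM of the library (lower block), from deviations of log2 values from group means; red is positive and blue negative. Apoe, Clu and Psen2 form a positive block, App and Bace1 another, and the summed FPKM follows Apoe most closely, at 0.96.

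The summed FPKM of the library moved with these relations. It had r of 0.959 and rho of 0.903 with Apoe (permutation p = 1e-05 for both), and r of 0.881, 0.975 and 0.977 within Ctrl, EtOH and EtOH-UA mice. Its r was 0.801 with Clu, 0.672 with Psen2, -0.208 with App, -0.331 with Mme, -0.475 with Bace1, -0.564 with Adam10, -0.587 with Mapt and -0.606 with Ide. The principal transcript had 1174 bases for Apoe, 1810 for Clu and 2000 for Psen2, the members with positive r. It had 3176 bases for App, 3782 for Mme, 4593 for Adam10, 4962 for Ide and 6058 for Bace1, whose r was negative. Mapt, also negative, went the other way with 1362 bases. The part of transcript length in these relations was not tested. In each group the library of highest summed FPKM was also the highest in Apoe and in Clu, although Apoe itself made up 0.309% of the sum on average. Many genes follow the sum: over 12904 genes the quartiles of r were -0.452 and 0.618, and Apoe ranked 127 from the top. Without the 2 EtOH-UA libraries of highest sum r was 0.926 for Apoe and 0.813 for Apoe with Clu.

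**Figure D4:**
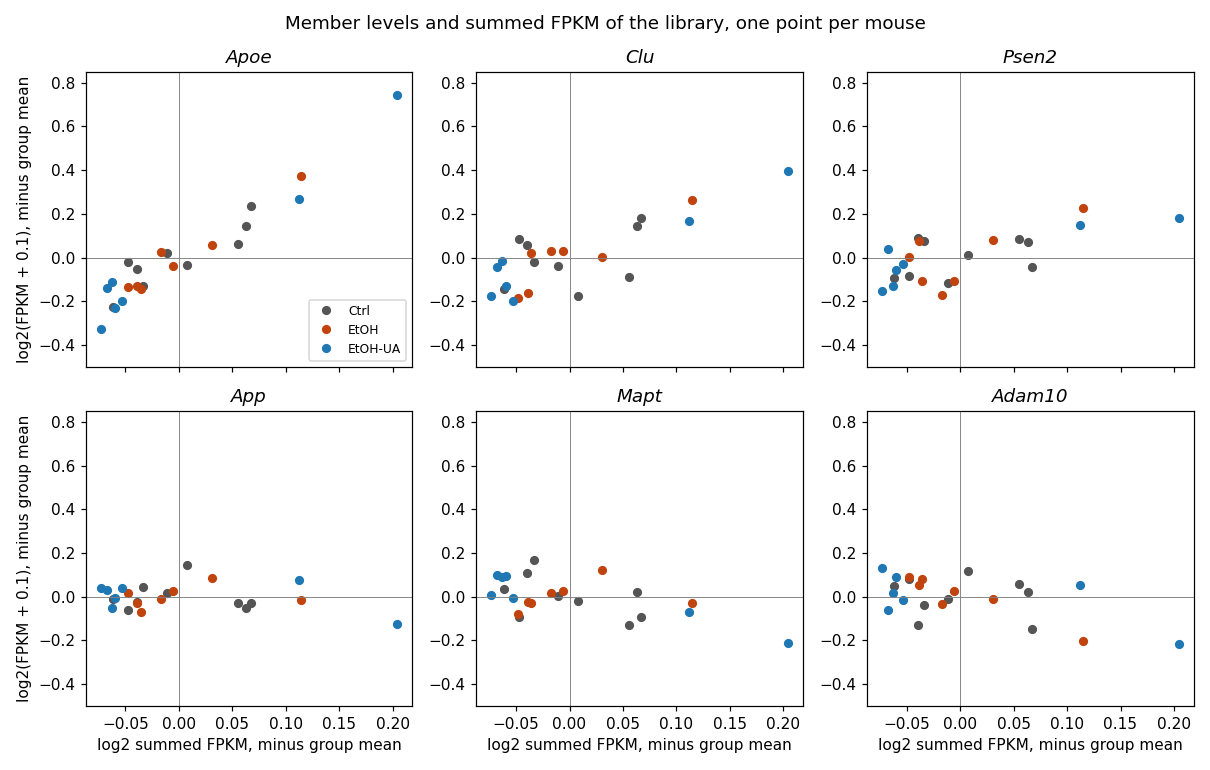
Level of 6 members as log2(FPKM + 0.1) (vertical axes) against the log2 summed FPKM of the library (horizontal axes), both as deviations from the group mean, 1 point per mouse. Apoe rises with the sum over all 3 groups, Clu and Psen2 less closely, and the EtOH-UA library at the far right is highest for Apoe and lowest for App, Mapt and Adam10.

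Markers of cell types moved with some members. Of 81 relations of members with marker scores 11 passed an adjusted 0.05 for r, and 5 of these also for rho. The scores covered neurons, astrocytes, microglia, oligodendrocytes, endothelium, choroid plexus and ependyma. They also covered striatum or septum, and dentate gyrus and CA fields, for which no relation passed. No share of other genes that pass is given here, so the counts cannot be read as particular to the members. The scores and members come from the same libraries, and 53.4% of 12904 genes had an r of at least 0.5 in size with the summed FPKM. These r had both signs, with quartiles of -0.452 and 0.618 over all these genes. Genes therefore did not all move the same way with the sum. Both EtOH-UA libraries of highest sum exceeded the other 5 in summed endothelial markers and in summed markers of dentate gyrus and CA fields. The markers of dentate gyrus and CA fields summed to 142 to 199 FPKM in Ctrl, 134 to 184 in EtOH mice and 143 to 223 in EtOH-UA mice. Bok, the top marker of that list, reached 48.4, 52.9 and 95.8 FPKM in the same order. The score of that list had r of -0.214 with Apoe and -0.136 with Clu. The endothelial score had r of 0.811 with Clu and 0.724 with Apoe, and the microglial score 0.747 and 0.672, while the astrocyte score had r of 0.23 and -0.06. Negative r that passed, though not by rho, was found for the endothelial score with Bace1 (-0.615), Adam10 (-0.548), App (-0.528) and Mme (-0.527) and for the microglial score with Bace1 (-0.559). App also went with the neuron score by r (0.533) and not by rho. The summed level of the 5 endothelial markers was 71.7 to 89.7 FPKM in Ctrl, 69.95 to 94.2 in EtOH mice and 78.6 to 104 in EtOH-UA mice, and that of the 6 microglial markers 109 to 141, 108 to 133 and 110 to 141. Mapt went with the oligodendrocyte score (r = 0.614, rho = 0.616, adjusted permutation p = 0.014 and 0.034 over the 126 relations), whose 6 markers summed to 1037 to 2245 FPKM in Ctrl, 1359 to 1988 in EtOH mice and 1155 to 2345 in EtOH-UA mice. None of these lists was at 0 in any group, and their part in the members' levels was not tested. The choroid plexus score, which varied most, had r between -0.26 and 0.16 with the members.

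Among 12903 other genes at 1 FPKM or more on average, the pattern over 23 mice most like App was that of Myo16 (r = 0.773), with Bace1 next, and for Bace1 it was Mia3 (r = 0.773), with App next. Mapt was most like Abca2 and Pacs2 (0.880 and 0.855), Apoe most like Cops8 and Dnajc7 (0.967 and 0.960), and Clu most like Fcgrt and Eef2 (0.911 and 0.908). For Adam10 these were Vkorc1l1 and Kif2a (0.892 and 0.886), for Ide Zxdb and Lmbrd1 (0.869 and 0.856), for Psen2 Fkbpl and Rbfa (0.853 and 0.852), and for Mme Snx14 and Rpgrip1l (0.795 and 0.753). These were picked as the highest of many and carry no test.

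Other genes of these pathways were read from the same fit. Of 83 further genes in 7 lists, 0 passed the limma threshold in any comparison. At an unadjusted limma p under 0.05 there were 0 of the 83 in EtOH against Ctrl, 2 lower in EtOH-UA against EtOH, and 1 higher and 1 lower in EtOH-UA against Ctrl. Of all genes tested 3.05%, 3.27% and 3.08% passed the same cut, so these counts do not set the lists apart. The 2 lower genes in EtOH-UA against EtOH were Lrp2, the receptor megalin (-0.38 in log2, limma, adjusted p = 0.900), and Adam19, a relative of Adam10 (-0.26, limma, adjusted p = 0.900). Lrp2 averaged 0.106 FPKM, close to the filter and the pseudocount of 0.1 FPKM, so its difference is one near the floor. In EtOH-UA against Ctrl the genes were Apod, a lipid carrier (0.37, limma, adjusted p = 0.999), and Dyrk1a, a tau kinase (-0.086, limma, adjusted p = 0.999).

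Among the 12 genes of the App family and its adaptors the smallest p belonged to Apbb1 in EtOH against Ctrl (-0.067) and to Itm2b in both comparisons of EtOH-UA mice (0.12 and 0.092 against EtOH and Ctrl). The 4 secretase relatives, Bace2 leading in EtOH against Ctrl (0.29, SE 0.26, at a mean of 0.981 FPKM), were higher for 4 of 4 there and for 0 of 4 in EtOH-UA against either group. In EtOH against Ctrl the differences of Adam9, Adam17 and Adam19 were 0.014, 0.056 and 0.058, each smaller than its SE (0.045, 0.068 and 0.11). Of 5 other gamma-secretase subunits the smallest p went to Aph1c (0.14), Aph1a (0.077) and Psenen (0.090) in the 3 comparisons, and of 11 other degrading enzymes to Ece1 (-0.095), Ctsb (0.079) and Ece1 (-0.12). Lipoprotein receptors and lipid carriers had 11 of 13 genes higher in EtOH than Ctrl mice, led by Lrp8 (0.12), with a list median of 0.061. The 28 tau kinases and phosphatases had 3 higher in EtOH than Ctrl, 17 in EtOH-UA than EtOH and 12 in EtOH-UA than Ctrl mice, with medians of -0.029, 0.026 and -0.0048, led by Mark3 (-0.049), Fkbp5 (0.13) and Dyrk1a. For 10 other microtubule-associated proteins Map6 (-0.085), Dcx (-0.34) and Map1a (-0.15) had the smallest p. None of these differences passed the threshold, and counts of direction carry no test.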

How the data were processed

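The FPKM values were deposited per gene and mouse, after the authors had mapped reads to mm10 (Bowtie2) and estimated abundance (RSEM). The submitters' processing notes give Bowtie2 2.2.5, RSEM 1.2.8 and HISAT2 2.1.0. Methods name poly(A)+ RNA and labels total RNA. DESeq2, the test of the methods, needs counts and was not used. Values were fitted as log2(FPKM + 0.1) for 15986 genes at 0.1 FPKM or more on average, in 1 limma 3.58.1 model of 3 groups (R 4.3.3, intensity trend, Benjamini-Hochberg adjustment over all genes, threshold 0.05). Fold changes on this scale understate those of low genes. Exact permutation tests were two-sided, over 3432 splits for EtOH-UA against EtOH and 11440 for comparisons with Ctrl (SciPy 1.17.1). The scripts were tested on simulated data. The members and lists were chosen with earlier results of these data known. Named genes were all members, per list the gene with the smallest p in each comparison or those past the threshold, 2 most alike genes per member, and the most abundant marker. Columns were assigned to groups by name. A further planned ratio and 1 list gene are not reported here. Promoters are from RefSeq (6 members had an entry) and the window was set to hold no annotated App UTR; CpG counts were added after a search of 4 motifs had been seen. Alternatives were other pseudocounts, filters, scalings, robust eBayes, array weights, a neuron or choroid plexus score as covariate, the 2 compared groups alone and each mouse left out; leaving out 2 EtOH-UA libraries was chosen after seeing the data.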

Additional observations from a re-analysis of the deposited data

Results flagged for a closer look

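In 6 of 45 groups of values the highest or lowest mouse stood apart from its group, judged by its gap to the nearest mouse as a share of the group's range; chance gives about 1 in 20, or 2.25 of 45. In Ctrl mice the highest App, 551 FPKM, had a gap share of 0.502. In EtOH mice the highest Apoe, 1313 FPKM, had 0.610 and the lowest Adam10, 20.8 FPKM, had 0.578, and both belonged to the library of highest summed FPKM of that group. The ratio App/Aplp2 had gap shares of 0.541 for its highest Ctrl mouse (3.45), 0.686 for its lowest EtOH mouse (2.79) and 0.751 for its lowest EtOH-UA mouse (2.48).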

How the results depend on the processing

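No member passed the threshold under any alternative: the count of members called stayed at 0 in 105 of 105 recomputations, and the smallest adjusted limma p over 945 recomputed member differences was 0.574. In 331 of the 945 the difference itself was the same to 4 digits, mostly since the setting could not move it (another filter, robust eBayes, the compared groups alone, a mouse of the third group left out). Of the 614 that moved, 548 kept their direction and 66 reversed. Of 306 recomputed ratios 269 kept direction and call, 34 reversed and 3 passed an exact permutation p of 0.05. The cause of the reversals was not tested. No paired analysis was possible because column names hold mouse numbers, not replicates shared by groups. Counting error was largest for Mme (11.1%, beside a mean spread of 16.8% between mice of a group) and Psen2 (6.80% beside 8.37%).

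With upper-quartile scaling, the log2 difference was 0.013 for Ide in EtOH against Ctrl and -0.0092 for Psen2 in EtOH-UA against EtOH. With array quality weights it was -0.00049 for Clu and 0.0016 for Ide in EtOH against Ctrl, -0.0070 for Apoe, -0.015 for Psen2 and 0.0086 for Adam10 in EtOH-UA against EtOH, and -0.074 for Apoe in EtOH-UA against Ctrl, and 1 gene of all tested passed in EtOH against Ctrl. With the neuron score as covariate Clu had -0.011 in EtOH against Ctrl. With quantile normalization Mme had 0.0047 in EtOH-UA against EtOH and Adam10 -0.0064 in EtOH-UA against Ctrl. Without the 2 EtOH-UA libraries of highest summed FPKM, EtOH-UA against EtOH gave -0.079 for Apoe, -0.055 for Psen2, -0.017 for Clu, 0.027 for Adam10, 0.0068 for App/Aplp2, 0.062 for Clu/Apoe and -0.0093 for Mapt/Map2. Against Ctrl it gave 0.0053 for Mapt, -0.11 for Apoe, 0.014 for Bace1/App, 0.0037 for App/Aplp2, 0.13 for Clu/Apoe (1 ratio test past 0.05) and -0.017 for Mapt/Map2.

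Leaving out each mouse in turn, the count of all genes called in limma was 0 to 1 in each comparison (1 without the Ctrl mouse of lowest Mapt, in EtOH against Ctrl, and 1 without the EtOH-UA mouse of lowest Mme or that of highest Bace1, in the comparisons of EtOH-UA mice) and that of ratio tests past 0.05 was 0 to 1. In EtOH against Ctrl the log2 difference was -0.013 to 0.019 for App, -0.0083 to 0.033 for Mapt, -0.012 to 0.062 for Clu, -0.010 to 0.043 for Adam10, -0.034 to 0.016 for Ide and -0.0090 to 0.18 for Mme. In EtOH-UA against EtOH it was -0.00087 to 0.18 for Apoe, -0.019 to 0.049 for Psen2, -0.040 to 0.030 for Adam10 and -0.12 to 0.064 for Mme. In EtOH-UA against Ctrl it was -0.033 to 0.15 for Apoe, -0.048 to 0.0075 for Psen2 and -0.020 to 0.039 for Adam10. Of the ratios in EtOH against Ctrl, Bace1/Adam10 gave -0.0045 to 0.045, Bace1/App 0.022 to 0.046, App/Aplp2 -0.015 to 0.019 and Mapt/Map2 -0.060 to 0.040. In EtOH-UA against EtOH, Bace1/App gave -0.066 to -0.030, App/Aplp2 -0.054 to 0.010, Clu/Apoe -0.053 to 0.030, Mapt/Map2 -0.018 to 0.064 and Mme/Ide -0.051 to 0.11. In EtOH-UA against Ctrl, Bace1/App gave -0.032 to 0.0032, App/Aplp2 -0.050 to 0.0070 and Mapt/Map2 -0.046 to 0.054.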
